A study of Bos taurus with 12 samples.

Results

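Fatty acid oxidation supplies cells with acetyl-CoA and reduced electron carriers. Its enzymes were followed here in growth plate chondrocytes, the cartilage cells that lengthen long bones, by comparing cells of the hypertrophic zone (HZ) with cells of the reserve zone (RZ). Of 36 genes listed for the mitochondrial and peroxisomal pathway, 32 were named by 40 probe sets on the array, out of 24016 probe sets that are not controls. A probe set is a group of short probes that reads 1 transcript, and every probe set was kept separately. CPT1A, ACSL4, ACAD8 and ETFDH were not analysed here.

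The HZ group held 6 samples, the least dense cells after a collagenase digestion of 4 hours, and the RZ group held 6 samples, the densest cells. Both came from the distal metacarpus of male dairy cattle under 10 months of age, and the samples were numbered as HZ and RZ pairs 1 to 6. The zones were parted by density centrifugation alone, as far as the labels say. Whether a pair is 1 animal is not stated, and the p-values therefore cover only the spread seen among these 6 pairs.

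A fatty acid is first joined to coenzyme A and enters the mitochondrion as a carnitine ester. It is then shortened by a repeated spiral of 4 reactions, namely dehydrogenation, hydration, a second dehydrogenation and thiolysis, and side enzymes deal with double bonds. Peroxisomes run a related spiral on very long and branched chains, with oxidases in place of the dehydrogenases that open it. Growth plate cartilage has no blood vessels in most of its depth, and chondrocytes are known for relying heavily on glycolysis.

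The labelled cells were checked against their markers. The brightest probe set of COL2A1, the main collagen of cartilage, had a signal of 25060 ± 5927 in HZ, against 23570 ± 9942 in RZ (SD, n = 6 each). Of the hypertrophic markers, the collagenase MMP13 was at 4728 ± 864 in HZ and 1186 ± 430.5 in RZ, and IHH, the hedgehog ligand of the growth plate, at 5892 ± 2468 in HZ and 2073 ± 1056 in RZ. Both rose (limma, adjusted p = 0.00205 and 0.0045). ALPL, also listed as a hypertrophic marker, gave 0.73 and 0.70 on its 2 probe sets, and 1 passed (adjusted p = 0.029 and 0.362). COL10A1, the classic hypertrophic collagen, missed the threshold (log2 difference 0.11, adjusted p = 0.755). Its signal was high in both fractions, at 21620 ± 4513 in HZ and 20150 ± 4698 in RZ. This probe set and that of COL2A1 were among the brightest on the array (percentile 100 of mean signal). Whether signals this high still follow the amount of RNA was not tested. Median signals were 96.69 on 11 arrays and 96.65 on RZ-5. Correlations between arrays ran from 0.911 to 0.971. Pairs 1 and 2 differed from pairs 3 to 6 in how finely the deposited values were stepped, at 0.0237 to 0.0318 against 0.00884 to 0.0110, so zone differences were also computed within each of these sets of pairs. Signals were recovered from the deposited ratios on an assumed unit, and signals of different probe sets cannot be set against each other.

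The question for the enzymes was whether their transcripts differ between the HZ and RZ fractions. No member probe set passed the test: 0 of 40 were higher and 0 of 40 were lower in HZ (limma, pairs as blocks, adjusted p under 0.05 over all 24016 probe sets). Over all probe sets, 6.22% passed. At an unadjusted p under 0.05 the members counted 6 of 40, where all probe sets gave 22.2%, and with a variance trend in limma 2 of 40 members passed, where 8.59% of all probe sets did. Lowest was the adjusted p of ACADVL, at 0.0564.

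The fitted log2 differences, HZ minus RZ on the scale of log2(signal + 16), lay between -0.60 for HADHB and 0.61 for ACADVL. In 18 member probe sets the value was above 0, a sign that 48.8% of all probe sets had, and in 22 it was below. The members' median was -0.04, against -0.01 over all probe sets. The median size of the difference without its sign was 0.20 for the members and 0.22 for all probe sets. Standard errors ran from 0.13 to 0.37. The 95% interval of each member, not adjusted for the number of members, lay within a 2-fold change either way in 40 of 40, as in 82.6% of all probe sets, and within a 1.5-fold change in 15 of 40. The added 16 shrinks differences of dim probe sets, and 12 members were below the median probe set in mean signal. In total RNA of a cell fraction, fewer cells of a type and less RNA per cell cannot be told apart.

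**Figure D1:**
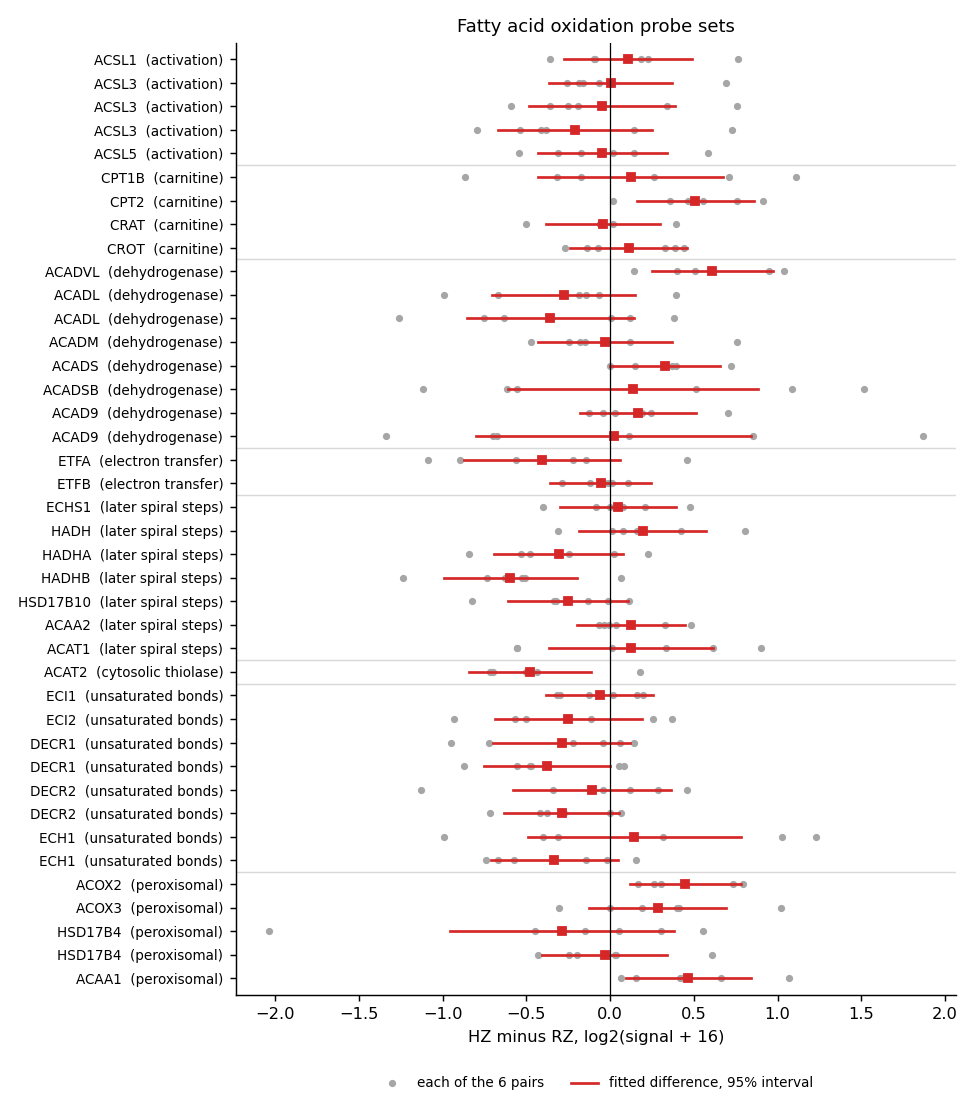
Difference between zones for the 40 member probe sets, grouped by role. The x axis is HZ minus RZ on the log2(signal + 16) scale, grey points are the 6 pairs, squares are the fitted differences and bars their 95% intervals; no interval reaches a 2-fold change (1 or -1), and ACADVL, at 0.61, and HADHB, at -0.60, lie farthest from 0.

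Acyl-CoA synthetases, which join fatty acids to coenzyme A, gave 5 probe sets. ACSL1, a main long-chain synthetase of oxidative tissues, had a median signal of 2045 in HZ (range 1733 to 3008) and 1862 in RZ (1655 to 3013). The zones overlapped, and the log2 difference was 0.11 ± 0.17 (SE). ACSL3, which sits at the endoplasmic reticulum and lipid droplets, was read by 3 probe sets that gave 0.00, -0.05 and -0.21. ACSL5 gave -0.05 ± 0.17. Among these 5 probe sets the lowest adjusted p was 0.616.

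Carnitine transferases carry the acyl group into the mitochondrion or out of the peroxisome. CPT2, which hands the acyl group back to coenzyme A inside the mitochondrion, had a signal of 292 at the lowest, 315 at the median and 374 at the highest HZ array, and 170 at the lowest, 213 at the median and 322 at the highest RZ array. It was higher in HZ in 6 of 6 pairs, though RZ-4, at 322, lay above 3 HZ arrays. The difference was 0.51 ± 0.16 (SE, adjusted p = 0.0900), and 0.51 in each set of pairs. CPT1B, the muscle form of the outer membrane transferase, was dim, with a signal of 48.6 ± 28.5 in HZ, against 39.0 ± 6.69 in RZ (SD, n = 6 each). CRAT, which acts on acetyl groups, gave -0.04 ± 0.15 and CROT, which acts on medium chains from peroxisomes, 0.11 ± 0.16 (SE).

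Acyl-CoA dehydrogenases open each turn of the spiral and differ in the chain length they prefer. ACADVL, the very long-chain enzyme bound to the inner membrane, had a signal of 697 at the lowest, 1034 at the median and 1645 at the highest HZ array, and 524, 679 and 1067 in RZ in the same order. It was higher in HZ in 6 of 6 pairs, with pair differences from 0.14 to 1.04, but the ranges of the zones overlapped. The fold was 1.53 (log2 0.61 ± 0.16, SE, adjusted p = 0.0564). Pairs 1 and 2 gave 0.67, pairs 3 to 6 gave 0.58.

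The enzymes for other chain lengths gave smaller values of either sign. ACADS, the short-chain enzyme, was above its RZ partner in 6 of 6 pairs, by only 0.001 in pair 6, with a difference of 0.33 ± 0.15 (SE, adjusted p = 0.226). ACADM, the medium-chain enzyme, gave -0.03 ± 0.18. ACADL, a long-chain enzyme, gave -0.28 and -0.36 on its 2 probe sets. ACADSB, which acts on short branched chains, was dim and varied widely, from -1.12 in pair 1 to 1.52 in pair 6. ACAD9, which also helps assemble respiratory complex I, gave 0.17 and 0.02, and the pair differences of the dimmer probe set ran from -1.34 to 1.87.

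Electrons from these dehydrogenases pass to the electron transfer flavoprotein, made of an ETFA and an ETFB subunit. ETFA had a signal of 504 ± 119.5 in HZ, against 669 ± 121 in RZ (SD, n = 6 each), lower in HZ in 5 of 6 pairs (log2 -0.41 ± 0.21, SE, adjusted p = 0.286). ETFB had 935 ± 168 in HZ and 969 ± 141.5 in RZ. Its log2 difference, -0.06 ± 0.13, had the smallest standard error among the members.

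The later steps of the spiral gave 7 probe sets. HADHA and HADHB encode the subunits of the mitochondrial trifunctional protein, which takes long chains through hydration, dehydrogenation and thiolysis, and their genes are neighbours in assembly ARS-UCD2.0. HADHB, named after its values were seen, had a signal of 578 at the lowest, 760 at the median and 1543 at the highest HZ array, and 904, 1250 and 1614 in RZ in the same order. In pair 3 the zones were nearly equal, at 1543 in HZ and 1476 in RZ, and in the other 5 pairs HZ was lower. The signal was 1.51-fold lower in HZ (log2 -0.60 ± 0.18, SE, adjusted p = 0.0809). Pairs 1 and 2 gave -0.52, pairs 3 to 6 gave -0.64. HADHA gave -0.31 ± 0.17 (adjusted p = 0.333), lower in 4 of 6 pairs.

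The single-step mitochondrial enzymes had values between -0.25 and 0.19. ECHS1, the short-chain hydratase, gave 0.05 ± 0.16 and HADH, the medium- and short-chain hydroxyacyl dehydrogenase, 0.19 ± 0.17 (SE). HSD17B10, a dehydrogenase that also acts in isoleucine breakdown and in mitochondrial RNase P, gave -0.25 ± 0.16. The mitochondrial thiolases ACAA2 and ACAT1 both gave 0.12, with standard errors of 0.14 and 0.22. ACAT2, the cytosolic thiolase that also starts sterol synthesis, was named after its values were seen: its signal was 2522 ± 781 in HZ, against 3445 ± 780 in RZ (SD, n = 6 each). It was lower in HZ in 5 of 6 pairs, all but pair 3, at -0.48 ± 0.16 (SE, adjusted p = 0.117).

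Isomerases and reductases that deal with double bonds had values below 0 in 7 of 8 probe sets, none passing (lowest adjusted p = 0.226), with a median of -0.27. DECR1, the mitochondrial dienoyl-CoA reductase, gave -0.38 ± 0.17 and -0.29 ± 0.18 (SE). Its peroxisomal relative DECR2 gave -0.11 and -0.29, the second on a probe set with a mean signal of 17.3. ECH1, which shifts the double bonds of dienes, gave -0.33 ± 0.17 on its brighter probe set and 0.14 ± 0.29 on the dimmer. ECI1, a mitochondrial isomerase, and ECI2, found in mitochondria and peroxisomes, gave -0.06 ± 0.14 and -0.25 ± 0.20.

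Peroxisomal enzymes of the core spiral gave 5 probe sets, with a median of 0.29 and 3 of them above 0. ACOX2, the oxidase for branched chains and bile acid intermediates, had a signal of 97.7 at the lowest, 111 at the median and 133 at the highest HZ array, and 61.7, 83.4 and 93.6 in RZ in the same order. The zones did not overlap, which held for 1 of 40 members and for 2.89% of all probe sets. The fold was 1.37 (log2 0.45 ± 0.15, SE, adjusted p = 0.108), and the log2 value was 0.45 in each set of pairs. ACAA1, the peroxisomal thiolase, was also higher in 6 of 6 pairs, at 710 ± 204 in HZ, against 497 ± 89.8 in RZ (SD, n = 6 each; log2 0.47 ± 0.17, SE, adjusted p = 0.133). ACOX3, another branched-chain oxidase, gave 0.29 ± 0.18. HSD17B4, the D-bifunctional protein, gave -0.03 ± 0.17 on its bright probe set; its dim one gave -0.29 ± 0.30, with RZ-6 at 83.1 and the other RZ arrays at 10.7 to 17.0.

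In all, 5 members had a value above 0 in all 6 pairs, namely CPT2, ACADVL, ACADS, ACOX2 and ACAA1, and 0 had a value below 0 in all 6. The share of the array with 1 sign throughout was 14.0%, made up of 6.85% upward and 7.15% downward.

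**Figure D2:**
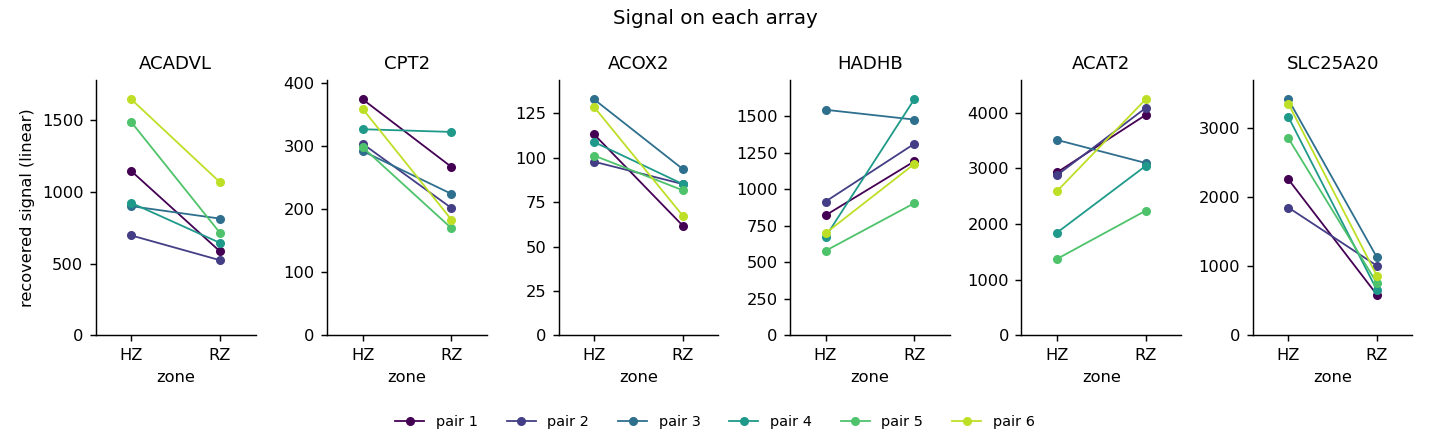
Recovered signal on each array (linear y axis from 0, 1 scale per panel), HZ left and RZ right, with a line joining the arrays of a pair. ACADVL, CPT2 and ACOX2 are higher in HZ in 6 of 6 pairs, and HADHB and ACAT2 are lower in 5 of 6 pairs. The zones lie fully apart for ACOX2 and for the transporter SLC25A20, which is no member.

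The calls for the leading members depended on the settings, and so did the number of calls on the whole array. ACADVL and HADHB passed with a variance trend in limma (adjusted p = 0.0176 and 0.0309), with 64 in place of 16 added to the signal (0.0240 and 0.0443), and when the 12008 brighter probe sets alone were tested (0.0142 and 0.0229). CPT2 passed with 64 added and among the brighter probe sets (0.0443 and 0.0303), and ACAT2 among the brighter ones (0.0448). Without pair 3, limma passed ACADVL, HADHB and ACAT2 (adjusted p = 0.0401, 0.0391 and 0.0396). Of all probe sets, 8.59% passed with the trend, against 2 of 40 members, and 8.90% with 64 added, against 3 of 40 members. Among the brighter probe sets 19.7% passed, against 4 of 28 members, and with pair 3 left out 6.41% passed, against 3 of 40 members.

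The pairs differed among themselves in how the members stood. In pair 3, 30 of 40 members were higher in HZ, with a median of 0.33, and in pair 4, 29 of 40 were lower, with a median of -0.31. In the other pairs the median ran from -0.08 to 0.07, with 16 to 22 of 40 higher. All probe sets leaned the same way in pairs 3 and 4, but less, with medians of 0.10 and -0.07; among those at or above the median signal the medians were 0.19 and -0.18, against 0.33 and -0.32 for the 28 members there.

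Pairs 3 and 4 also held the HZ arrays with the highest ratio of 3′ to 5′ probes of GAPDH, a measure of RNA degradation or short labelled copies. The log2 ratio was 1.46 on HZ-3 and 1.21 on HZ-4, from -0.09 to 0.27 on the other HZ arrays, and from -0.20 to 0.50 on the RZ arrays. The same ratio of actin was highest on HZ-4, HZ-3 and HZ-1, at 3.96, 3.52 and 3.38. The GAPDH ratio was higher in HZ in every pair but pair 6 (0.24 on HZ-6, 0.50 on RZ-6). That of actin was higher in HZ in every pair but pair 2 (2.27 on HZ-2, 2.31 on RZ-2). The ratios thus ran with the zone beyond pairs 3 and 4, and leaving these pairs out does not remove that. The part of RNA quality in the members' values was not tested. With pairs 3 and 4 left out, 0 of 40 members passed, where only 0.579% of all probe sets did, and the members' median was -0.09.

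**Figure D3:**
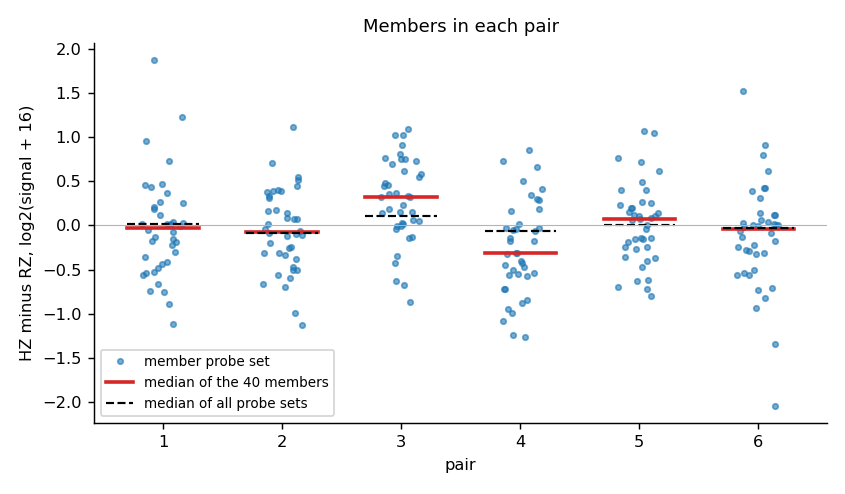
HZ minus RZ on the log2(signal + 16) scale for each of the 40 members (points) in each pair, with the median of the members (solid line) and of all 24016 probe sets (dashed line). The members' median is highest in pair 3, at 0.33, and lowest in pair 4, at -0.31.

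Genes around the enzymes were read from 9 lists with 104 measured genes and 149 probe sets. In HZ 8 of them were higher and 9 were lower by the same test, 11.4% in all, against 3.26% higher and 2.96% lower of all probe sets. The 12 genes concerned are 6 that rose and 6 that fell, and 92 did not pass. The lists were chosen with earlier results of these data known, so their share beside that of the array is no independent result. With 1 in place of 16 added, or on the deposited ratios, 6 of the 12 did not pass by their best probe set, namely MCEE, ACOT8, DGAT2, G0S2, FADS2 and SCD (adjusted p from 0.0512 to 0.0885). Without pairs 3 and 4, SLC25A20 and ELOVL4 passed and the other 10 did not, where only 0.579% of all probe sets passed. The adjusted p of these 10 ran from 0.0513 for LIPA to 0.13 for DGAT2, with G0S2 at 0.0985. Changes of these genes are log2 differences with their standard errors.

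SLC25A20, the carnitine-acylcarnitine translocase that carries acylcarnitines across the inner mitochondrial membrane to CPT2, had a signal of 1848 at the lowest, 3004 at the median and 3410 at the highest HZ array, and 586.5, 807 and 1126 in RZ in the same order. The zones did not overlap, and the rise was 3.35-fold (log2 1.74 ± 0.19, SE, limma adjusted p = 0.00184). Pairs 1 and 2 gave 1.39, pairs 3 to 6 gave 1.92. Its second probe set also rose, by 1.10 ± 0.15 (adjusted p = 0.00481). It was the 1 gene of 11 to pass in its list of other activation and carnitine genes (median over 17 probe sets 0.15). The carnitine importer SLC22A5 gave 0.41 and -0.13, and MLYCD, which removes the CPT1 inhibitor malonyl-CoA, gave 0.56 (adjusted p = 0.141).

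FABP5, a cytosolic fatty acid binding protein, rose on both probe sets, by 1.26 ± 0.23 and 0.92 ± 0.16 (SE, adjusted p = 0.0138 and 0.0113). On the brighter one HZ had a median of 1548 (range 905.5 to 1812) and RZ a median of 499 (460 to 1098), with overlap through RZ-2, at 1098. It was the 1 of 13 uptake and binding genes to pass (median over 19 probe sets 0.17). FABP4, the binding protein of adipocytes and macrophages, gave 0.76 and 0.74 (adjusted p = 0.0759 and 0.0828), and the fatty acid receptor CD36 gave 0.48 (adjusted p = 0.297).

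Among 16 other peroxisomal genes 2 rose and 0 fell (median over 21 probe sets 0.04). CAT, the catalase that removes the hydrogen peroxide made by acyl-CoA oxidases, had a median signal of 999 in HZ (752 to 1333) and 530 in RZ (399 to 700), with no overlap, and rose by 0.96 ± 0.17 (SE, adjusted p = 0.0124). ACOT8, a peroxisomal thioesterase, rose by 1.16 ± 0.24 (adjusted p = 0.0243), though its other, dim probe set gave 0.06, and it did not pass without pair 2, 4, 5 or 6 (adjusted p up to 0.0789). MCEE, which acts on methylmalonyl-CoA from odd and branched chains, rose by 0.85 ± 0.17 (adjusted p = 0.0189) as the 1 of 13 genes to pass in the list of other acyl-CoA and propionate enzymes (median over 16 probe sets 0.09). Without pair 1 or pair 4 it did not pass (adjusted p up to 0.0644).

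PDK4, the kinase that switches off pyruvate dehydrogenase, fell on all 3 of its probe sets, by 1.10 ± 0.19, 1.11 ± 0.21 and 0.998 ± 0.24 on the log2 scale (SE, adjusted p = 0.0121, 0.0176 and 0.0416). On the first of these HZ had a median of 164 (range 104.5 to 244.5) and RZ a median of 344 (279.5 to 814), with no overlap. It was the 1 of 14 genes to pass in the list of regulators (median over 28 probe sets 0.04). None of the nuclear receptors and coactivators there passed: PPARD gave 0.22, 0.40 and 0.13, the dim PPARA 0.33 and -0.27, PPARG 0.22 and PPARGC1A from -0.66 to 0.47. RXRA, the partner of the PPAR receptors, gave 0.61 ± 0.16 (adjusted p = 0.0582).

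Synthesis and desaturation had the lowest median among the 9 lists, at -0.33 over 20 probe sets, with 3 of 15 genes falling and 0 rising. ELOVL4, an elongase of very long chains, fell by 1.56 ± 0.22 and 0.94 ± 0.19 on its 2 probe sets (log2, SE, adjusted p = 0.00569 and 0.0231), with no overlap of zones on either. FADS2, a desaturase of polyunsaturated chains, fell by 1.08 ± 0.22 (adjusted p = 0.0227). SCD, which makes monounsaturated chains, fell by 0.88 ± 0.19 (adjusted p = 0.0280), its signal being 6190 ± 2369 in HZ against 10750 ± 1524 in RZ (SD, n = 6 each). FADS2 did not pass without pair 1, 2, 4 or 6 (adjusted p up to 0.0666), nor SCD without pair 1, 4, 5 or 6 (up to 0.0903). FASN, the fatty acid synthase, gave -0.51 ± 0.14 (adjusted p = 0.0649) and ACLY, which supplies its acetyl-CoA, -0.60 ± 0.17 (adjusted p = 0.0683).

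Of 14 lipid droplet and lipolysis genes 1 rose and 2 fell (median over 18 probe sets 0.02). The lysosomal lipase LIPA rose by 2.40 ± 0.27 (SE, adjusted p = 0.00198). G0S2, an inhibitor of the triglyceride lipase PNPLA2, fell to a median of 2449 in HZ (1593 to 3017), against 4534 in RZ (3658 to 5701), a log2 difference of -0.97 ± 0.19 (adjusted p = 0.0189) with no overlap. DGAT2, which makes triglycerides, fell by 0.97 ± 0.20 (adjusted p = 0.0210), but did not pass without pair 1, 4 or 5 (adjusted p up to 0.0700). None of the 3 ketone body genes or 5 thioesterase genes passed, with medians of -0.22 over 4 probe sets and 0.32 over 6.

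**Figure D4:**
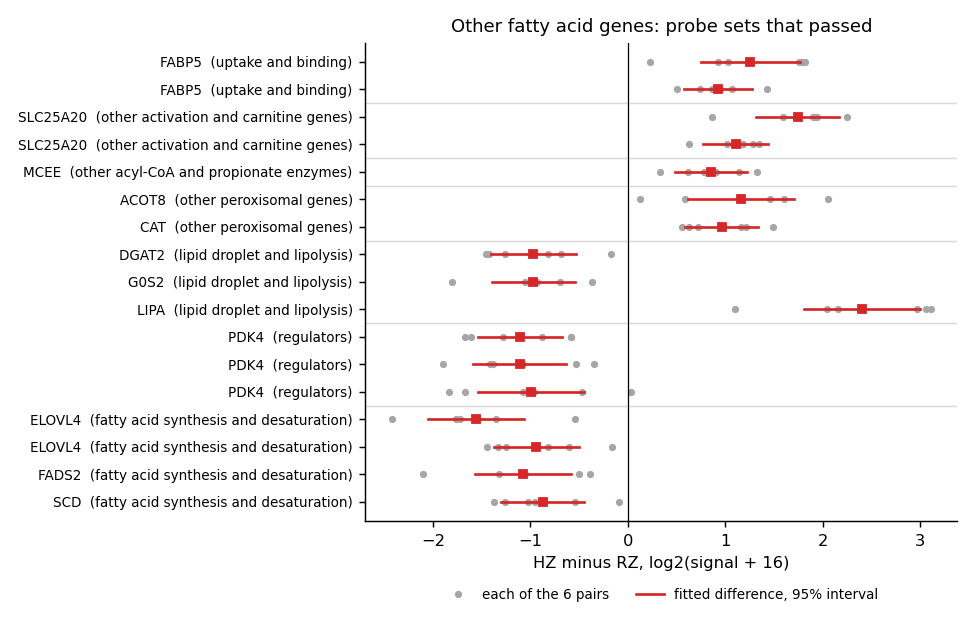
The 17 probe sets of other fatty acid genes that passed, with HZ minus RZ on the log2(signal + 16) scale (grey points for the 6 pairs, squares for the fitted differences, bars for 95% intervals). Probe sets of FABP5, SLC25A20, MCEE, ACOT8, CAT and LIPA lie above 0, and those of DGAT2, G0S2, PDK4, ELOVL4, FADS2 and SCD below.

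Markers of other cells moved with the zones too, and their part in the changes of these genes was not tested. Sums of signals are given for each list, but a sum mostly follows its brightest probe sets and does not measure how many cells of a type were present. Of 5 macrophage genes, C1QA, C1QB and CSF1R rose (log2 1.955, 1.64 and 1.03). CD14 gave -1.02 and -0.81 and fell on 1 of 2 probe sets, and CD68 gave 0.14. Their summed signals, mostly of CD14 and CD68, were 1518 to 2754 in HZ and 1227 to 2770 in RZ. The osteoclast genes CTSK and ACP5 both rose, ACP5 on 1 of 3 probe sets, with sums of 7486 to 10530 in HZ and 2537 to 5699 in RZ. PECAM1 fell among 4 endothelial genes, whose sums were 196 to 532 in HZ and 529.5 to 873 in RZ. CATHL1 fell among 8 granulocyte genes (sums 517 to 2165 in HZ and 595 to 10510 in RZ), and NKG7, on 1 of 2 probe sets, among 4 lymphocyte genes (147 to 359 in HZ and 220.3 to 532 in RZ). The other NKG7 probe set was higher in HZ in 6 of 6 pairs (log2 0.78, limma adjusted p = 0.144). None of 5 fibroblast genes passed, with sums of 5401 to 9916 in HZ and 7035 to 33220 in RZ. COL1A2 came closest, lower in HZ in 6 of 6 pairs on 1 of 2 probe sets (log2 -1.12, limma adjusted p = 0.0515). Of the adipocyte genes, ADIPOQ, LEP, CIDEC and FABP4 were measured and 0 of 6 probe sets passed. Their summed signal, 239 to 919 in HZ and 193 to 428 in RZ, was higher in HZ in 6 of 6 pairs, as was the osteoclast sum. The fibroblast, endothelial and lymphocyte sums were higher in HZ in 1 of 6 pairs each, and the macrophage and granulocyte sums in 2 of 6 each. The adipocyte sum includes FABP4, which is also a gene of macrophages. The other adipocyte genes had no common direction: ADIPOQ gave 0.19, LEP -0.18 and 0.07, and CIDEC -0.03 (log2). MYH1 rose on 1 of 8 probe sets among 4 skeletal muscle genes, at 25.7 ± 7.15 in HZ, against 8.13 ± 4.83 in RZ (SD, n = 6 each), and none of 4 erythroid genes passed.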

How the data were processed

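Total RNA of 12 samples was measured on 1-colour arrays. The authors deposited 1 linear ratio per probe set and array; how the scans were summarized and normalized is not given in the sources used here. For 90.8% of 24128 probe sets the ratio was the signal over that probe set's median over the 12 arrays, and for the other 2227 over 1 fixed value, as read from the values. Signals were recovered from the whole-number steps of the deposited ratios, for all probe sets to within 0.0824 of a step, with 1 step taken as 0.1 units, an assumption that sets the weight of the added 16. Recovered array medians were 96.69 on 11 arrays and 96.65 on RZ-5, and nothing further was normalized. The design had assumed this recovery.

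Zone differences came from limma 3.58.1 (lmFit and eBayes with pairs as blocks, R 4.3.3) on log2(signal + 16) of 24016 probe sets, with Benjamini-Hochberg adjustment and a threshold of 0.05. The pairing comes from the series description and the titles, and deviations from the zone means correlated within every pair (0.124 to 0.447). The recovery and the fit were tested on simulated data. Symbols came from the platform table, and all 40 member probe sets matched RefSeq genes of assembly ARS-UCD2.0 by Entrez identifier with 0 changed symbols. Members and lists were chosen with earlier results of these data known. Values on every array were given for passing members and for those with the same sign in all 6 pairs among the 5 lowest adjusted p, and up to 4 passing genes were named per list. The number of arrays limits the precision.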

Additional observations from a re-analysis of the deposited data

Results flagged for a closer look

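Among 114 sets of 6 signals (each member and each passing probe set of the other lists, in each zone), 9 held an array whose gap to the nearest other passed Dixon's 95% critical value for a group of that size on the log2(signal + 16) scale, where chance gives about 1 in 20. Among the members, HSD17B4 (dim probe set) was at 83.1 on RZ-6 and at 10.7 to 17.0 on the other RZ arrays. ECI1 was at 463 on RZ-6 and at 263 to 299 on the others. DECR2 was at 388 on RZ-2, against 237 to 280 on the other RZ arrays, and its dim probe set was at 9.21 on HZ-4, against 13.8 to 16.6 on the other HZ arrays. On RZ-1, ACSL1 stood high, at 3013 against 1655 to 1885, and ACOX3 low, at 121 against 179 to 201. Outside the members, PDK4 was at 814 on RZ-4 against 279.5 to 353 on the other RZ arrays, and its second probe set at 402 against 90.7 to 156. FABP5 was at 355 on RZ-2, against 173 to 211 on the other RZ arrays.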

How the results depend on the processing

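The count of members that passed, 0 higher and 0 lower, became 2 and 1 with 64 added to the signal (8.90% of all probe sets passed), 1 and 1 with a variance trend (8.59%), and 2 and 2 of 28 members among the 12008 brighter probe sets (19.7%). Leaving out 1 pair at a time gave 0 to 1 higher and 0 to 2 lower. It stayed at 0 and 0 with no replicate block, 1 added, the deposited ratios, quantile normalization, pairs 1 and 2 or 3 to 6 alone, and without pairs 3 and 4. The members' median ran from -0.09 without pairs 3 and 4 to 0.01 after quantile normalization or without pair 2. Over all probe sets, 782 higher and 712 lower became 505 and 326 with no replicate block, 368 and 215 with 1 added, 315 and 163 with the deposited ratios, 258 and 78 in pairs 3 to 6, 0 and 0 in pairs 1 and 2 (2931 at an unadjusted p under 0.05), and 91 and 48 without pairs 3 and 4. They became 1017 and 1120 with 64 added, 988 and 1075 with a trend, and 1031 and 1340 among the brighter probe sets. Leaving out 1 pair gave 334 to 650 higher and 223 to 895 lower; the cause was not tested. The 12 passing pathway genes all kept their direction; 10 of them passed with no replicate block (not ACOT8, adjusted p = 0.143, or SCD, 0.0608), 6 with 1 added or with the deposited ratios (not MCEE, ACOT8, DGAT2, G0S2, FADS2 or SCD), 3 in pairs 3 to 6 and 2 without pairs 3 and 4 (SLC25A20 and ELOVL4). Dim members limit what these arrays can show.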
